A study of Drosophila melanogaster with 16 samples.

Results

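The last step of a time course of muscle wasting was examined, day 16 (Late) against day 14 (Mid) of larvae kept on a high-sugar diet (HSD). Messenger RNA of dissected larval body wall muscle of Drosophila melanogaster was sequenced in 4 Late and 4 Mid libraries, which are 8 of the 16 libraries of the series and all of those labelled with these ages. The other 8 libraries are 4 of the same genotype on control diet (CD) at day 8 and 4 on HSD at day 12 (Early), and they enter here only as a source of the spread between libraries and as levels for orientation. All animals carried the tumour genotype labelled Ras/Src, ras1G12V;csk-/-, in which cells of the eye tissue express an activated Ras and have lost csk, the gene for a kinase that holds Src in check. Per the study's methods these clones were made with an eyeless-driven recombinase and were marked with GFP, so muscle is host tissue by design. The study reports secondary tumours in some of the animals on HSD. Whether clone cells were present in the dissected tissue was not tested. HSD held 1.0 M sucrose and CD 0.15 M sucrose as the purified sugar. Neither a tumour-free group nor a CD group of these ages was among the libraries, so age, time on HSD and time with a tumour cannot be told apart. Each library was made from pooled dissected tissue. Of 15682 genes in the table, 11607 had enough counts to be tested, and results are given for these by function.

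Larval body wall muscles are single multinucleate cells packed with sarcomeres, in which myosin thick filaments slide along actin thin filaments anchored at Z-discs. Motor neurons drive them through glutamate receptors clustered at the neuromuscular junction, and the contractions are paid for by glycolysis and mitochondrial respiration. When muscle wastes, as in the cachexia that accompanies some cancers, myofibrils are dismantled, the proteasome and autophagy break down protein, and amino acids can pass into the circulation. In flies, ligands of the FGF, PVR and JAK-STAT pathways, an insulin-binding protein (ImpL2) and proline have been studied as signals or nutrients that pass between a tumour and wasting organs.

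Levels are given as CPM, the counts of a gene per 1000000 counts of its library, after TMM scaling of the library totals. Values of 4 libraries are listed in the order of replicates 1 to 4. A fold change is the log2 of Late over Mid, so that a positive value is a higher level at Late, with its standard error (SE). A gene is said to have risen or fallen where its adjusted p was at most 0.05 in edgeR's quasi-likelihood test with Benjamini-Hochberg adjustment over all 11607 genes. As the tissue was sequenced in bulk, fewer cells of a type and less RNA per cell cannot be told apart.

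The Mid libraries held 20693390 to 26978468 counts and the Late libraries 23629734 to 28698585. Genes of the sarcomere, the defining markers of muscle, were abundant in every library. Their summed level was 55283, 24915, 51365 and 41214 CPM at Mid and 26275, 15255, 12321 and 24871 CPM at Late, against a median of 41348 CPM on CD and 113190 CPM at Early. Late replicate 4 stood apart from its group. Across genes, its log2 CPM values had a mean correlation of 0.926 with the other Late libraries and 0.951 with the Mid libraries, whereas the other Late libraries had mean correlations of 0.946 to 0.964 within their own group. Markers of other cell types also moved with this library. The summed level of 16 fat body markers was 14321, 7495, 10252 and 11938 CPM at Mid and 24517, 11385, 37474 and 6694 CPM at Late, so Late replicate 4 had the lowest level of the 8 and Late replicate 3 the highest. The summed level of 39 testis genes was 484, 236, 86.9 and 33.2 CPM at Mid and 26.6, 177, 26.8 and 743 CPM at Late, highest in Late replicate 4 and uneven within both groups. Where a result depends on Late replicate 4, the value without it is also given. This library was singled out by its likeness to Mid, so leaving it out widens the distance between the groups by construction, and genes that pass only without it are given as a description and are not counted as risen or fallen. Adjusted p-values of that fit are biased toward passing by the same choice. Wherever they are printed below, they are no support for a change.

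**Figure D1:**
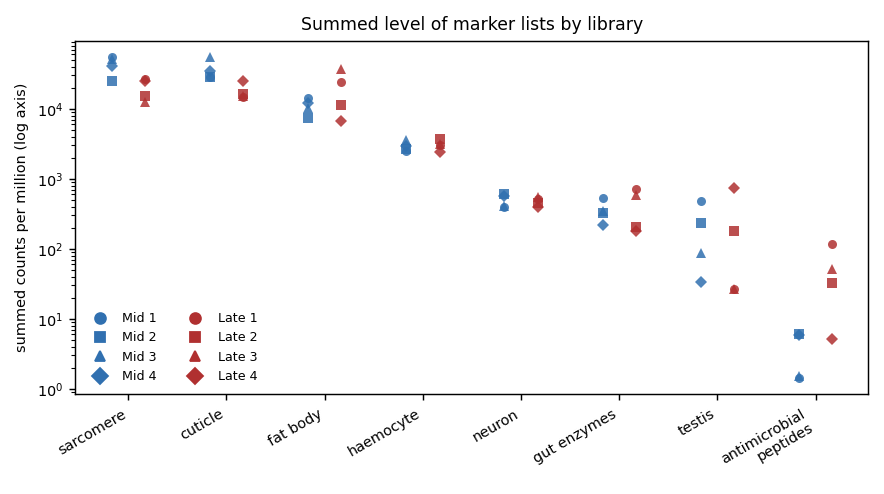
Summed CPM of each marker list (vertical log axis) in every Mid and Late library, 1 symbol a library. Sarcomere sums ran from 24915 to 55283 CPM at Mid and from 12321 to 26275 CPM at Late, cuticle sums did not overlap between the groups, and testis sums ranged more than 10-fold within each group.

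Between Mid and Late, 22 genes changed, 17 upward and 5 downward. This is 0.190% of the genes tested (0.146% upward and 0.0431% downward). In each of the 22 genes the 4 Late libraries lay outside the range of the 4 Mid libraries, as they did in 515 genes above (4.44%) and in 436 genes below (3.76%) of all 11607. An unadjusted p under 0.05 was reached by 1489 genes, 857 upward (7.38%) and 632 downward (5.44%). DESeq2's Wald test on the same counts called 571 genes, 312 upward (2.69%) and 259 downward (2.23%), and these shares of all genes are the background for the lists below. The fold changes of all genes centred near 0, with a median of 0.07 and with 6715 above 0. The count of calls rested on the choice of libraries. The 22 calls came from the fit to all 16 libraries. In a fit to the 8 Mid and Late libraries alone edgeR called 0 genes, with a smallest adjusted p of 0.11. Without Late replicate 4, 222 of 11741 genes passed the same threshold, 166 upward (1.41%) and 56 downward (0.477%), the 22 among them. In that fit the median over all genes was -0.09 and 4933 of 11741 were above 0, so values without this library are to be read against that median. Leaving out Mid replicate 2 left 4 calls, leaving out Mid replicate 1 left 1, and leaving out any of Mid replicates 3 and 4 and Late replicates 1, 2 and 3 left 0, with 997 to 1329 genes at an unadjusted edgeR p under 0.05 in those 5 fits. Late replicate 4 was the Late library nearest to the Mid range in 12 of the 17 risen genes and in 4 of the 5 fallen ones (70.6% and 80%). It was also the nearest in 56.3% of the 515 genes with all Late above all Mid and in 45.6% of the 436 with all Late below. All 22 genes kept their direction when each library was left out in turn. This follows from the lack of overlap between their groups and is no further support.

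Among the risen genes, path (pathetic, FBgn0036007) encodes an amino acid transporter of the SLC36 family. Its level was 165, 135, 82.1 and 176 CPM at Mid and 255.2, 442, 542 and 319.8 CPM at Late, on average 139 ± 41.9 CPM at Mid and 389.8 ± 128 CPM at Late (SD, n = 4 each), and it rose (log2 fold change 1.48, SE 0.26, edgeR adjusted p = 0.0338). No Late library reached down to the Mid range, and the means on CD and at Early, 69.8 and 88.6 CPM, lay below those of Mid and Late. CDase (FBgn0039774), a neutral ceramidase that splits ceramide into sphingosine and a fatty acid, was at 36.7, 49, 30.5 and 33.3 CPM at Mid and 104, 125, 126 and 55.7 CPM at Late and rose (log2 fold change 1.46, SE 0.25, edgeR adjusted p = 0.0338). The 3 higher Late libraries lay close together and Late replicate 4 was nearest to Mid. Rdh1 (FBgn0033205), annotated by name as a retinol dehydrogenase, was at 29.4, 19.2, 17.5 and 19.2 CPM at Mid and 54.7, 81.9, 83.9 and 38 CPM at Late (log2 fold change 1.60, SE 0.27, edgeR adjusted p = 0.0338). jv (javelin, FBgn0263973), an actin-associated protein known from the shaft of sensory bristles, was at 18.7, 34.5, 12.3 and 21.5 CPM at Mid and 76.8, 66.9, 70.6 and 48.2 CPM at Late (log2 fold change 1.59, SE 0.27, edgeR adjusted p = 0.0338).

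Ku80, PolZ1 and eIF6 also rose. Ku80 (FBgn0041627), a subunit of the Ku complex that holds broken DNA ends for joining, was at 10.8, 10.8, 12.3 and 11.7 CPM at Mid and 20.8, 27.9, 32.1 and 19 CPM at Late (log2 fold change 1.13, SE 0.17, edgeR adjusted p = 0.0238). The Mid libraries differed from each other by less than the distance to the lowest Late library. PolZ1 (FBgn0002891), the catalytic subunit of translesion DNA polymerase zeta, was at 34.6, 23.7, 19.3 and 24.8 CPM at Mid and 57.2, 89.99, 81.7 and 43.2 CPM at Late (log2 fold change 1.41, SE 0.25, edgeR adjusted p = 0.0419). eIF6 (FBgn0034915), a factor of large ribosomal subunit maturation that keeps the subunits apart, was at 47.5, 38.9, 53.6 and 52.9 CPM at Mid and 72.5, 118, 94.4 and 73.4 CPM at Late (log2 fold change 0.89, SE 0.16, edgeR adjusted p = 0.0375). It was the 1 member that changed among 23 tested genes of the ribosome biogenesis list, while 0.146% of all genes rose.

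The risen genes held 3 of 74 tested cytochrome P450s and 1 of 31 tested glutathione S-transferases, while 0.146% of all genes rose. Enzymes of these families oxidise or conjugate foreign and internal compounds. Cyp12c1 (FBgn0036806), of a mitochondrial P450 clade, was at 6.97, 7.51, 6.66 and 6.23 CPM at Mid and 35.4, 49.5, 26.7 and 10.3 CPM at Late (log2 fold change 2.15, SE 0.37, edgeR adjusted p = 0.0338). Its Mid libraries were nearly level and its Late libraries spread widely, with Late replicate 4 lowest. Cyp6d2 (FBgn0034756) was at 22.4, 21.3, 20.8 and 18.4 CPM at Mid and 44, 95.2, 55.8 and 41.5 CPM at Late (log2 fold change 1.51, SE 0.21, edgeR adjusted p = 0.0238). Cyp4p2 (FBgn0033395) was at 111, 95.8, 68.1 and 91.2 CPM at Mid and 151, 229, 215 and 166 CPM at Late (log2 fold change 1.06, SE 0.19, edgeR adjusted p = 0.0457), and it was the most abundant of the 3. GstD9 (FBgn0038020), of the delta class of glutathione S-transferases, was at 20.6, 22.8, 16.3 and 22.6 CPM at Mid and 37.2, 50.7, 68.3 and 32.8 CPM at Late (log2 fold change 1.20, SE 0.22, edgeR adjusted p = 0.0419).

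The risen gene with the largest fold change, CG42365 (FBgn0259711), was at 15, 13.9, 10.01 and 11.7 CPM at Mid and 83.3, 129, 61 and 25.6 CPM at Late (log2 fold change 2.56, SE 0.35, edgeR adjusted p = 0.0238), and its CD and Early means of 11.4 and 12.9 CPM were like those of Mid. CG2909 was at 7.98, 9.81, 6.24 and 9.61 CPM at Mid and 19.8, 46.2, 28.2 and 19 CPM at Late (log2 fold change 1.75, SE 0.27, edgeR adjusted p = 0.0238). CG12868 was at 15.6, 15.4, 12.4 and 15.5 CPM at Mid and 36.6, 65.2, 46.6 and 29.1 CPM at Late (log2 fold change 1.59, SE 0.25, edgeR adjusted p = 0.0238). These genes are named by number and no role is given here. In the same way CG14695 rose by 1.35, CG33158 by 1.30 and CG42553 by 1.19 on the log2 scale, with edgeR adjusted p = 0.0419, 0.0238 and 0.0242. CG33158 differed little between Mid libraries, with 28.2, 28.2, 29.3 and 28.9 CPM at Mid and 60.9, 100.3, 77.4 and 43.2 CPM at Late.

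Of the 5 fallen genes, 2 encode proteins known from the neuromuscular junction. Which cells of the dissected tissue gave the reads of these genes was not tested. Ank2 (FBgn0261788), an ankyrin that ties membrane proteins to the spectrin skeleton and is known from the motor neuron terminal, was at 49.3, 73, 55.8 and 68 CPM at Mid and 28.2, 25.7, 29.8 and 40.1 CPM at Late (log2 fold change -0.99, SE 0.15, edgeR adjusted p = 0.0238). GluRIIA (FBgn0004620), a subunit of the glutamate receptor of the neuromuscular junction, was at 34.7, 27.6, 32.1 and 23 CPM at Mid and 19.1, 12.6, 15.6 and 18.1 CPM at Late (log2 fold change -0.84, SE 0.15, edgeR adjusted p = 0.0457). Bhmt (FBgn0032727), annotated by name as betaine-homocysteine methyltransferase, an enzyme of methionine renewal, was at 219.9, 235, 281 and 219 CPM at Mid and 121, 76.3, 80.1 and 143 CPM at Late (log2 fold change -1.18, SE 0.22, edgeR adjusted p = 0.049). In these genes all Late libraries lay below all Mid libraries, with Late replicate 4 the closest to Mid in Ank2 and Bhmt. CG8519 was at 34.2, 38.7, 55.7 and 40.8 CPM at Mid and 21.5, 15.3, 13.2 and 25 CPM at Late (log2 fold change -1.18, SE 0.22, edgeR adjusted p = 0.049). CG9269 was at 16.2, 7.34, 16.3 and 19 CPM at Mid and 4.08, 3.39, 4.44 and 6.02 CPM at Late (log2 fold change -1.71, SE 0.32, edgeR adjusted p = 0.049), with Mid replicate 2 far below the other Mid libraries. Those 2 are named by number only.

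**Figure D2:**
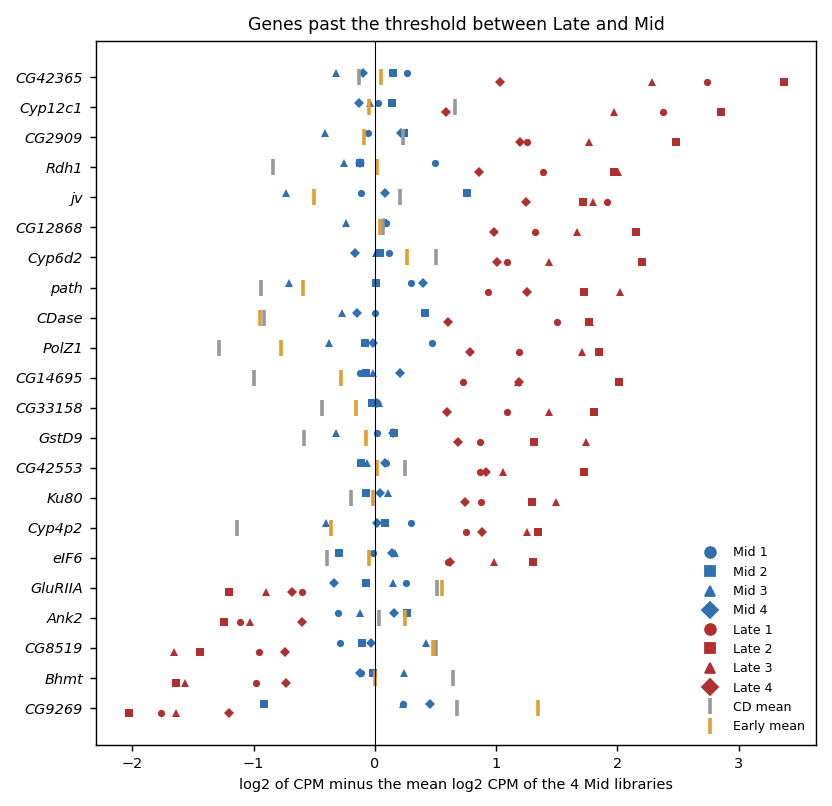
Each row is a gene that rose or fell, and each symbol is 1 library, as the log2 of its CPM minus the mean log2 CPM of the 4 Mid libraries (horizontal axis); vertical ticks mark the means of CD and Early. The Late symbols lie outside the Mid symbols in all 22 genes, and Late replicate 4 is often the Late symbol nearest to them.

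Genes of the sarcomere had lower values at Late in nearly every case, without a call in the fit to all 16 libraries. Of 27 tested genes of thick filament, thin filament, Z-disc and M-line, 26 had a fold change below 0 and none passed (edgeR unadjusted p under 0.05 in 20, all downward; DESeq2 calls 13, all downward). The median was -1.01, against 0.07 over all genes. In 8 of the 27 (29.6%) all Late libraries lay below all Mid libraries, against 3.76% of all genes. The median was -1.08 for 7 thick filament genes, -1.20 for 11 thin filament genes and -0.89 for 9 Z-disc and M-line genes. Over the members tested in each of the 17 alternatives (Mhc, for one, is absent where the 20 genes with most counts were removed), the median lay between -1.35 and -0.88.

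The abundant filament genes differed widely among Mid libraries. Mhc, the muscle myosin heavy chain, was at 2526, 660.2, 2463 and 1795 CPM at Mid and 1408, 702, 416 and 984 CPM at Late (log2 fold change -1.08, SE 0.56, edgeR adjusted p = 0.451). Mid replicate 2 lay below Late replicates 1, 2 and 4, so the groups overlapped. Mlc2, the regulatory myosin light chain, was at 6653, 1566, 5336 and 3746 CPM at Mid and 2646, 984, 592 and 2116 CPM at Late (log2 fold change -1.45, SE 0.55, edgeR adjusted p = 0.253). Act57B, an actin of larval muscle, whose reads can be shared with the other actin genes, was at 9478, 2436, 10048 and 6525 CPM at Mid and 3941, 2483, 1219 and 3474 CPM at Late (log2 fold change -1.36, SE 0.48, edgeR adjusted p = 0.22). The gene up, which encodes troponin T of the thin filament, was at 5909.8, 2293, 4432 and 3588 CPM at Mid and 2574, 936, 456 and 2104 CPM at Late (log2 fold change -1.42, SE 0.49, edgeR adjusted p = 0.21). In each of these genes Mid replicate 2 was the lowest Mid library and Late replicate 3 the lowest of all 8.

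Structural genes of the Z-disc and the connecting filaments had tighter groups. sls, which encodes the titin-like protein of the fly sarcomere, was at 2458, 1974, 2585 and 2639.9 CPM at Mid and 1165, 1157, 1332 and 1545 CPM at Late (log2 fold change -0.89, SE 0.29, edgeR adjusted p = 0.169). The gene bt (bent, projectin), another giant protein of the titin family, was at 1662, 1059.8, 1334 and 1575 CPM at Mid and 956, 548, 644 and 779 CPM at Late (log2 fold change -0.94, SE 0.33, edgeR adjusted p = 0.22). Neither overlapped between groups and neither passed. Zasp66, a PDZ domain protein of the Z-disc, was at 1530.2, 2012, 2177 and 1396 CPM at Mid and 952, 452, 470.5 and 1306 CPM at Late (log2 fold change -1.16, SE 0.30, edgeR adjusted p = 0.0932). Mlp84B, a muscle LIM protein of the Z-disc, was at 1443, 708, 1378 and 1185 CPM at Mid and 623, 336, 422 and 694 CPM at Late (log2 fold change -1.18, SE 0.31, edgeR adjusted p = 0.0962). TpnC73F, a calcium-binding troponin C, was at 980.4, 575, 1089.9 and 886 CPM at Mid and 425, 272, 269.8 and 544 CPM at Late (log2 fold change -1.22, SE 0.30, edgeR adjusted p = 0.0817). The gene cher, the fly filamin that crosslinks actin, was at 1041, 1687, 1339.7 and 1085 CPM at Mid and 727, 603, 729.7 and 920.2 CPM at Late (log2 fold change -0.79, SE 0.19, edgeR adjusted p = 0.0817). Those 4 had no overlap either. In the fit without Late replicate 4, 3 of 27 sarcomere genes passed, all downward, against 0.477% of all genes in that fit. Their fold changes were -1.57 (edgeR adjusted p = 0.0219) for Zasp66, -1.50 (edgeR adjusted p = 0.0396) for TpnC73F and -0.98 (edgeR adjusted p = 0.0411) for cher.

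**Figure D3:**
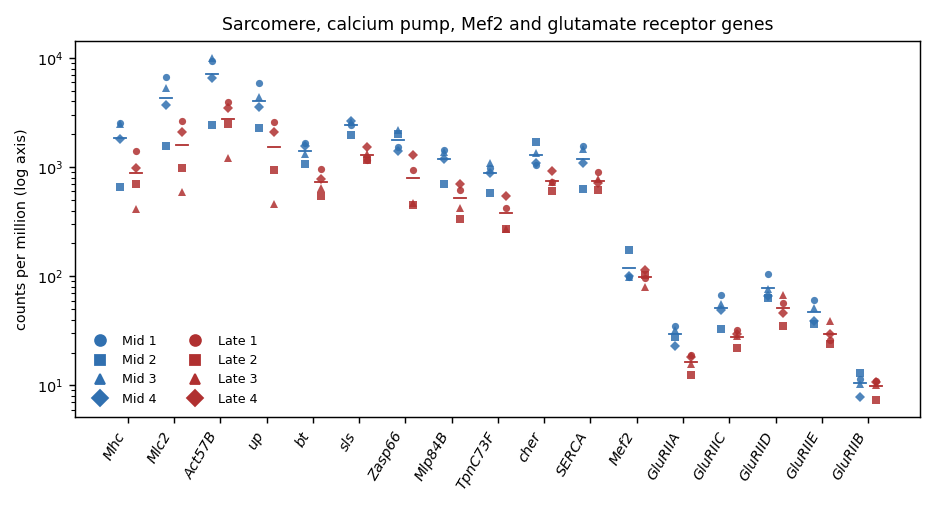
CPM on a log axis of 17 muscle genes in the 4 Mid and 4 Late libraries, 1 symbol a library. The filament genes on the left overlap between groups through Mid replicate 2, sls, bt, Zasp66, Mlp84B, TpnC73F and cher do not overlap, and Mef2 and GluRIIB differ little.

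Postsynaptic genes other than GluRIIA did not pass. Of 9 tested genes of the glutamate receptor and postsynapse list, 8 had a fold change below 0, with a list median of -0.62. An unadjusted edgeR p under 0.05 was reached downward by 4, and DESeq2 called 3, all downward. Of the 9, 1 fell, against 0.0431% of all genes. In 3 (33.3%) Late lay below Mid without overlap, against 3.76% of all genes. GluRIIC, an essential subunit of every receptor of this junction, was at 68, 33.1, 56.3 and 48.9 CPM at Mid and 32, 22.1, 28.4 and 29.4 CPM at Late (log2 fold change -0.88, edgeR adjusted p = 0.106). GluRIIE and GluRIID, also essential subunits, had fold changes of -0.66 and -0.62 with edgeR adjusted p = 0.162 and 0.239, and their groups overlapped. GluRIIB, the alternative to GluRIIA in the receptor, was at 11.4, 12.9, 10.3 and 7.9 CPM at Mid and 11.1, 7.38, 10.1 and 10.8 CPM at Late (log2 fold change -0.11, edgeR adjusted p = 0.976), and its groups overlapped. The difference between the GluRIIA and GluRIIB changes was not tested.

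Genes of calcium handling and muscle identity lay closer to 0. The median of 9 calcium handling genes was -0.19, with no call (edgeR unadjusted p under 0.05 in 0; DESeq2 calls 0). SERCA, the pump that returns calcium to the sarcoplasmic reticulum, was at 1558, 635, 1473 and 1098 CPM at Mid and 905, 621, 771 and 712 CPM at Late (log2 fold change -0.66, edgeR adjusted p = 0.48). RyR, the calcium release channel, was at 72.1, 42.3, 70.001 and 69.1 CPM at Mid and 47.1, 23, 29.1 and 35.2 CPM at Late (log2 fold change -0.91, edgeR adjusted p = 0.405). In both the groups overlapped through Mid replicate 2. Among 17 myogenic transcription factors 12 had a fold change below 0 and none passed (edgeR unadjusted p under 0.05 in 2, all downward; DESeq2 calls 1, downward). Mef2, the master regulator of muscle gene expression, was at 97.9, 175, 98.2 and 101 CPM at Mid and 97, 103, 79.7 and 113 CPM at Late (log2 fold change -0.26, edgeR adjusted p = 0.729), with Mid replicate 2 above the other 7 libraries. The median of 17 genes of muscle attachment was -0.04.

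Most glycolytic genes had fold changes below 0, and most genes of sugar storage and sensing above 0, with no call in either list. Of 14 glycolytic genes 12 had a fold change below 0, with a median of -0.67 (edgeR unadjusted p under 0.05 in 6, all downward; DESeq2 calls 2, all downward). Gapdh1, glyceraldehyde-3-phosphate dehydrogenase, was at 1132, 463, 1179.5 and 774 CPM at Mid and 536, 328, 437 and 499 CPM at Late (log2 fold change -0.98, edgeR adjusted p = 0.34). Pgi, which interconverts glucose and fructose phosphates, was at 641, 267, 638 and 452 CPM at Mid and 322, 193, 174 and 278 CPM at Late (log2 fold change -1.05, edgeR adjusted p = 0.177). Pgm1, which links glucose phosphate to glycogen, had a fold change of -1.15 (edgeR adjusted p = 0.205). In all 3 the groups overlapped through Mid replicate 2. Of the glycogen enzymes, Glyp, glycogen phosphorylase, was at 1716, 661, 1619 and 1269 CPM at Mid and 836, 421, 331 and 678 CPM at Late (log2 fold change -1.22, edgeR adjusted p = 0.176). AGBE, the glycogen branching enzyme, was at 153, 85.3, 133 and 114 CPM at Mid and 84.9, 48, 64.2 and 72.8 CPM at Late (log2 fold change -0.85, edgeR adjusted p = 0.179) and did not overlap. These enzymes are 2 of the 4 lower members of the trehalose, glycogen and sugar sensing list. In that list 11 of 15 genes had a fold change above 0, with a median of 0.31. An unadjusted edgeR p under 0.05 was reached by 2 upward and 2 downward, and DESeq2 called 2, all downward. The summed level of the list went the other way, with overlap, at 2436, 1308, 2304 and 1970 CPM at Mid and 1649, 1009, 1239 and 1221 CPM at Late.

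Mitochondrial genes showed small and even differences. All 20 genes of the tricarboxylic acid cycle had fold changes below 0, with a median of -0.31 (edgeR unadjusted p under 0.05 in 4, all downward; DESeq2 calls 0). For respiratory complex I, 35 of 37 genes were below 0 with a median of -0.32, and for complexes II to V 35 of 36 with a median of -0.40. An unadjusted edgeR p under 0.05 was reached downward by 5 and by 1 of them, and DESeq2 called 0. Late lay below Mid without overlap in 3, 4 and 1 genes of these lists (15%, 10.8% and 2.78%), against 3.76% of all genes. Idh3b, a subunit of isocitrate dehydrogenase, was at 159, 106, 133 and 135 CPM at Mid and 101, 78.8, 80.02 and 102 CPM at Late (log2 fold change -0.56, edgeR adjusted p = 0.281). mAcon1, mitochondrial aconitase, had a fold change of -0.66 (edgeR adjusted p = 0.281). ND-49, a core subunit of complex I, was at 125, 120.0, 159 and 129.6 CPM at Mid and 113, 84.9, 86.1 and 109 CPM at Late (log2 fold change -0.45, edgeR adjusted p = 0.271). ATPsynbeta, the catalytic subunit of ATP synthase, was at 934, 649, 1082 and 875 CPM at Mid and 721, 518, 592 and 665 CPM at Late (log2 fold change -0.50, edgeR adjusted p = 0.412). In contrast to the cycle and the complexes, 72 mitochondrial ribosomal protein genes had a median of -0.02, with 32 above 0, and its sign changed in 2 of the 17 alternatives. The medians without Late replicate 4 were -0.44 for the cycle, -0.50 for complex I and -0.55 for complexes II to V, and the median of all genes moved in the same fit from 0.07 to -0.09.

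**Figure D4:**
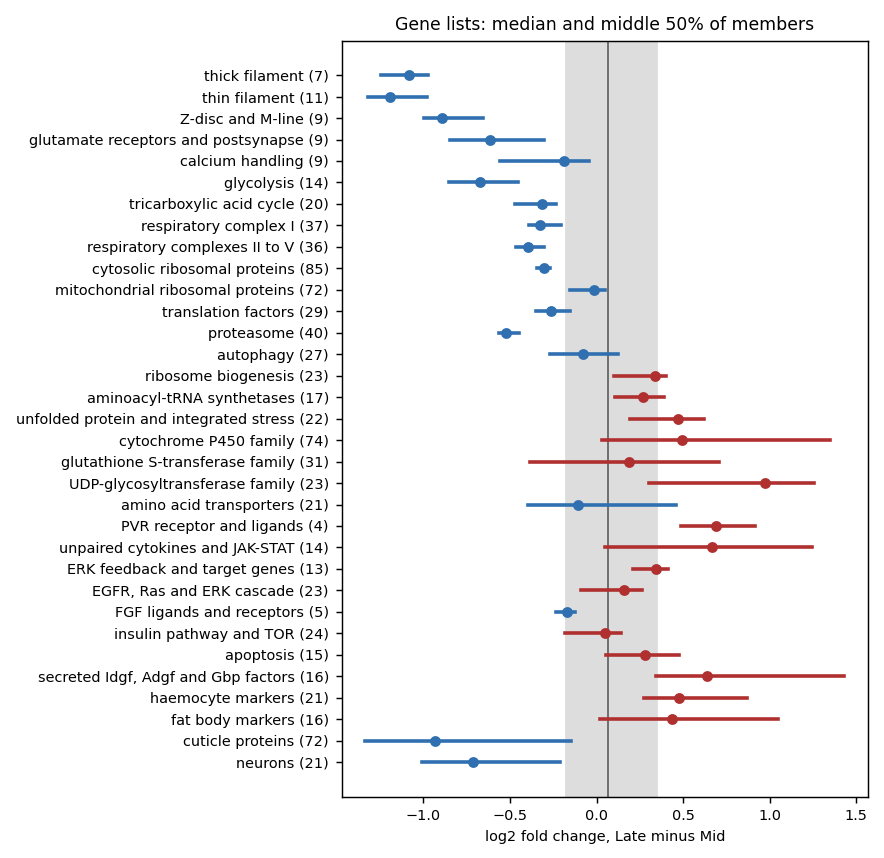
Median (point) and middle 50% (bar) of the log2 fold changes, Late minus Mid, of the members of 33 gene lists, with the number of tested members in parentheses. Sarcomere, glycolysis, respiration, cytosolic ribosome and proteasome lists lie left of 0, and UDP-glycosyltransferase, PVR, cytochrome P450 and endoplasmic reticulum stress lists lie right of 0.

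Genes for making protein split by step. The 85 tested cytosolic ribosomal protein genes had 80 fold changes below 0 in a narrow band, with a median of -0.30. None passed (edgeR unadjusted p under 0.05 in 25, all downward; DESeq2 calls 9, all downward), and in 48 of them (56.5%) all Late libraries lay below all Mid libraries, against 3.76% of all genes. Their summed level was 124370, 107050, 126140 and 119750 CPM at Mid and 96781, 88154, 97457 and 101240 CPM at Late, without overlap. RpS3A, of the small subunit, was at 3196, 2809, 3130.1 and 2770.5 CPM at Mid and 2107, 1891, 2296 and 2279.7 CPM at Late (log2 fold change -0.47, edgeR adjusted p = 0.135). Of 29 translation factors 26 were below 0, 11 without overlap, with a median of -0.26 (edgeR unadjusted p under 0.05 in 1 upward and 10 downward; DESeq2 calls 1 upward and 9 downward). eEF2, which moves the ribosome along the message, was at 8385, 6547, 7206 and 7434 CPM at Mid and 5934, 5573, 6401 and 5424 CPM at Late (log2 fold change -0.34, edgeR adjusted p = 0.401). eEF1gamma, of the elongation factor that delivers aminoacyl-tRNA, was at 2475, 1859.6, 2441 and 2314 CPM at Mid and 1753, 1428, 1584 and 1550.2 CPM at Late (log2 fold change -0.53, edgeR adjusted p = 0.145). An exception within the list was eIF2beta, of the initiation factor that brings the initiator tRNA, at 165, 174, 204 and 195 CPM at Mid and 217, 303, 244 and 242 CPM at Late (log2 fold change 0.44, edgeR adjusted p = 0.161), where Late lay above Mid.

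Genes that charge tRNAs, build ribosomes or fold secreted proteins had mostly positive fold changes. Of 17 aminoacyl-tRNA synthetases, which charge tRNAs with amino acids, 15 had a fold change above 0, 4 without overlap (23.5%, against 4.44% of all genes), with a median of 0.27 and no call (edgeR unadjusted p under 0.05 in 7, all upward; DESeq2 calls 3, all upward). TrpRS was at 29.2, 30.7, 35 and 37.2 CPM at Mid and 40.1, 68.7, 50.7 and 48.9 CPM at Late (log2 fold change 0.66, edgeR adjusted p = 0.0817). ValRS was at 98.1, 76.2, 75.9 and 88.7 CPM at Mid and 115, 235, 177 and 117 CPM at Late (log2 fold change 0.93, edgeR adjusted p = 0.0993), and AspRS had a fold change of 0.61 (edgeR adjusted p = 0.101). Among 23 ribosome biogenesis genes 18 were above 0, with a median of 0.34 and the call of eIF6, while 0.146% of all genes were called upward. The unfolded protein and integrated stress list, chaperones and sensors of the endoplasmic reticulum and their relatives, had 18 of 22 genes above 0, 7 without overlap (31.8%), with a median of 0.47 and no call (edgeR unadjusted p under 0.05 in 15, all upward; DESeq2 calls 8, all upward). Gp93, the reticulum relative of Hsp90, was at 627, 419, 479 and 565 CPM at Mid and 784, 1436, 1416 and 825 CPM at Late (log2 fold change 1.09, edgeR adjusted p = 0.0616). Ire1, the sensor kinase and RNase of this stress, was at 147, 84.9, 76.8 and 90.8 CPM at Mid and 186, 308, 340.0 and 150.5 CPM at Late (log2 fold change 1.30, edgeR adjusted p = 0.0894). Calr, calreticulin, had a fold change of 0.80 and Hsc70-3, the BiP chaperone, of 0.57 (edgeR adjusted p = 0.103 and 0.254). Without Late replicate 4, 4 of the 22 passed upward, against 1.41% of all genes in that fit. Among them were wfs1, the wolframin of the reticulum membrane, at 1.49 (edgeR adjusted p = 0.00703), Gp93 at 1.16 (edgeR adjusted p = 0.0314) and Ire1 at 1.42 (edgeR adjusted p = 0.0475). The separate list of heat shock proteins and chaperones of other compartments lay near 0, with 16 of 25 genes above 0 and a median of 0.10 (edgeR unadjusted p under 0.05 in 6, all upward; DESeq2 calls 3, all upward), whose sign changed in 2 of the 17 alternatives. Of its members, Hsp60A, the mitochondrial chaperonin, was at 195, 183, 242 and 287 CPM at Mid and 317, 454, 383 and 339 CPM at Late (log2 fold change 0.72, edgeR adjusted p = 0.106), and Hsp83, the cytosolic Hsp90, had a fold change of 0.58 (edgeR adjusted p = 0.169).

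**Figure D5:**
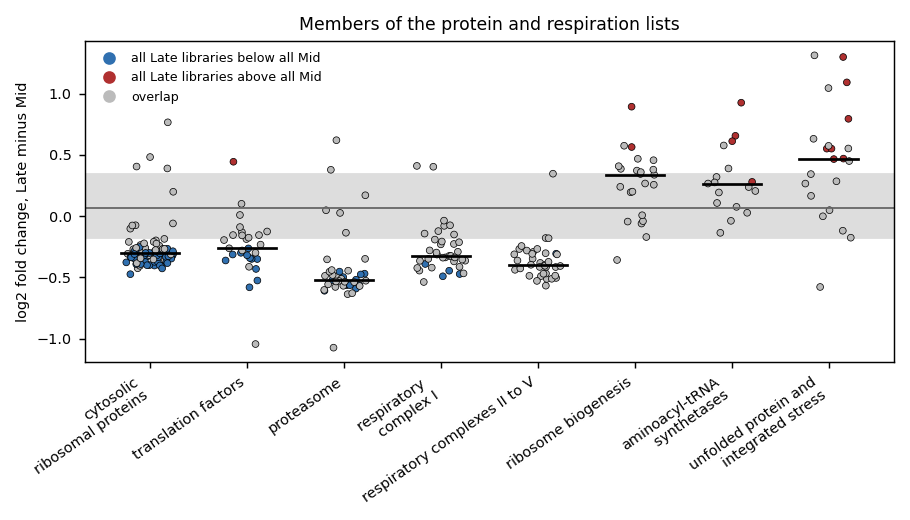
Log2 fold change, Late minus Mid, of every tested member of 8 lists, 1 point a gene. Cytosolic ribosomal protein genes form a tight band below 0 (median -0.30), proteasome genes lie lower (median -0.52), and ribosome biogenesis, aminoacyl-tRNA synthetase and reticulum stress genes lie mostly above 0.

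Genes for breaking down protein did not rise as a group. Of 40 proteasome genes 35 had a fold change below 0, 12 without overlap (30%, against 3.76%), with a median of -0.52 and no call (edgeR unadjusted p under 0.05 in 28, all downward; DESeq2 calls 4, all downward). All 40 were below 0 without Late replicate 4, and the median was then -0.73, with a median of -0.09 over all genes in that fit. Rpn8, of the regulatory cap, was at 329, 402, 372 and 289 CPM at Mid and 267, 197, 256 and 267 CPM at Late (log2 fold change -0.50, edgeR adjusted p = 0.144). Prosbeta3, of the catalytic core, was at 224, 291, 278 and 205 CPM at Mid and 190.3, 112, 155 and 197 CPM at Late (log2 fold change -0.61, edgeR adjusted p = 0.162). Summed over the list, the level was 9734, 13415, 12809 and 9500 CPM at Mid and 8826, 5965, 7532 and 9524 CPM at Late, so Mid replicates 2 and 3 were highest, and Late replicate 4 lay within the Mid range. Among 27 autophagy genes 12 were above 0 and the median was -0.08 (edgeR unadjusted p under 0.05 in 4, all downward; DESeq2 calls 2, all downward). The 23 ubiquitin ligases and FOXO targets had a median of -0.03. The gene foxo itself, a transcription factor that insulin signalling holds out of the nucleus, was at 163, 110.2, 133 and 147 CPM at Mid and 94, 81.6, 98.2 and 98.3 CPM at Late (log2 fold change -0.57, edgeR adjusted p = 0.244), with no overlap.

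Beyond the called genes, most cytochrome P450 and UDP-glycosyltransferase genes had fold changes above 0. Of 74 tested cytochrome P450 genes 56 had a fold change above 0, with a median of 0.49 (edgeR unadjusted p under 0.05 in 22 upward and 4 downward; DESeq2 calls 9 upward and 2 downward). In 9 of them (12.2%, against 4.44% of all genes) Late lay above Mid without overlap and in 2 below (2.7%, against 3.76%). Cyp309a1 was at 5.999, 7.77, 4.44 and 11.3 CPM at Mid and 45.1, 26.3, 35 and 14.6 CPM at Late (log2 fold change 2.03, edgeR adjusted p = 0.0595). Cyp12a5 went the other way, at 35.8, 24, 27.6 and 25.4 CPM at Mid and 17.5, 8.59, 13.2 and 15.8 CPM at Late (log2 fold change -1.03, edgeR adjusted p = 0.0817). In the fit without Late replicate 4, 7 of 75 tested members of the family passed upward, against 1.41% of all genes in that fit. Besides the 3 above they included Cyp309a1 at 2.21 (edgeR adjusted p = 0.0223), Cyp28d1 at 2.14 (edgeR adjusted p = 0.0219) and Cyp6g1, known for insecticide resistance, at 1.61 (edgeR adjusted p = 0.0227). The level of Cyp6g1 was 20.4, 21.1, 27.3 and 34.8 CPM at Mid and 88.8, 49.5, 112 and 28.5 CPM at Late, with Late replicate 4 inside the Mid range. Some P450 genes lie in tandem clusters of similar sequence, so reads may be split between neighbours.

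In the glutathione S-transferase family 17 of 31 genes had a fold change above 0, and the median of 0.19 became -0.01 without Late replicate 2. Without overlap, 9 lay above (29%, against 4.44% of all genes) and 2 below (6.45%, against 3.76%). An unadjusted edgeR p under 0.05 was reached by 12 upward and 7 downward, and DESeq2 called 5 upward and 2 downward. GstD5 was at 1.41, 3.27, 0.828 and 4.52 CPM at Mid and 22.6, 38.8, 20.2 and 14.6 CPM at Late (log2 fold change 3.26, edgeR adjusted p = 0.0817). GstE6 was at 54, 42, 27.6 and 43.9 CPM at Mid and 96.2, 118, 152 and 95.1 CPM at Late (log2 fold change 1.46, edgeR adjusted p = 0.0541). GstE9 was at 10.2, 16.8, 5.04 and 6.26 CPM at Mid and 21.4, 44.7, 20.3 and 28.1 CPM at Late (log2 fold change 1.58, edgeR adjusted p = 0.106). These delta and epsilon class genes were lower in every Mid library than in any Late library. GstT4, of the theta class, was at 308, 211, 244 and 276 CPM at Mid and 190.3, 124, 209 and 167 CPM at Late (log2 fold change -0.59, edgeR adjusted p = 0.193), the reverse order. Among UDP-glycosyltransferases, which add sugars to lipophilic compounds, 22 of 23 had a fold change above 0, with a median of 0.97 and no member free of overlap (edgeR unadjusted p under 0.05 in 6, all upward; DESeq2 calls 3, all upward). Ugt36D1 was at 78.9, 116, 39.3 and 40.1 CPM at Mid and 239, 185, 288 and 108 CPM at Late (log2 fold change 1.58, edgeR adjusted p = 0.0817). Ugt49B1 was at 13.8, 8.19, 6.28 and 9.75 CPM at Mid and 38.7, 30.5, 69.5 and 11 CPM at Late (log2 fold change 1.98, edgeR adjusted p = 0.0817). In both, Late replicate 4 alone reached into the Mid range, and without it they passed, at 1.71 (edgeR adjusted p = 0.0391) and 2.20 (edgeR adjusted p = 0.0219). The fat body sum given above was likewise lowest in Late replicate 4, and its part in the result was not tested.

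Amino acid transporters other than path varied in sign. Of 21 tested, 10 had a fold change above 0, 1 rose (against 0.146% of all genes), and the median was -0.11. JhI-21, a light chain type transporter of large neutral amino acids, was at 25.5, 24.7, 27.8 and 35.9 CPM at Mid and 43.1, 92.7, 42.6 and 38.8 CPM at Late (log2 fold change 0.93, edgeR adjusted p = 0.191). The gene sbm (sobremesa), another amino acid transporter, was at 88.8, 122, 133 and 88.6 CPM at Mid and 60.7, 45.9, 55.2 and 75 CPM at Late (log2 fold change -0.87, edgeR adjusted p = 0.0954), and without Late replicate 4 it passed, at -1.07 (edgeR adjusted p = 0.0359). Their order was opposite, JhI-21 above and sbm below the Mid range in every Late library. Proline enzymes had 7 of 9 fold changes below 0 with a median of -0.27. P5CS, which makes the precursor of proline from glutamate, was at 131, 86.3, 85.1 and 114 CPM at Mid and 246, 135, 264 and 92.9 CPM at Late (log2 fold change 0.82, edgeR adjusted p = 0.205), and without Late replicate 4 it passed, at 0.97 (edgeR adjusted p = 0.0425). Gs2, a glutamine synthetase, was at 206, 715, 339.9 and 227 CPM at Mid and 100.4, 82.2, 79.5 and 374 CPM at Late (log2 fold change -1.23, edgeR adjusted p = 0.352), and without Late replicate 4 it passed, at -2.16 (edgeR adjusted p = 0.0391). Cbs, cystathionine beta-synthase, which draws homocysteine toward cysteine, was at 45.9, 37.7, 47.1 and 44.3 CPM at Mid and 77.1, 82.4, 62 and 52.7 CPM at Late (log2 fold change 0.65, edgeR adjusted p = 0.106), above Mid in every Late library, whereas Bhmt, which returns homocysteine to methionine, fell.

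Growth factor pathways were read from their ligands, receptors and feedback genes. For FGF, 1 of 5 genes had a fold change above 0 and none passed (edgeR unadjusted p under 0.05 in 0; DESeq2 calls 0). The ligand bnl (branchless) was at 14.4, 41.2, 14.8 and 26.1 CPM at Mid and 14.9, 14.2, 14.9 and 16.5 CPM at Late (log2 fold change -0.68, edgeR adjusted p = 0.401), and its Late libraries were level while Mid replicate 2 was highest. The ligand pyr (pyramus) was at 131, 76.9, 63.8 and 88.1 CPM at Mid and 71.7, 99, 111 and 85.6 CPM at Late (log2 fold change 0.03, edgeR adjusted p = 1). The ligand ths (thisbe) was at 4.1, 6.83, 6.43 and 6.23 CPM at Mid and 9.65, 2.77, 4.76 and 3.83 CPM at Late (log2 fold change -0.17, edgeR adjusted p = 1). Both ligands act on the receptor htl. The receptor htl (heartless), which acts in the mesoderm, was at 42.3, 33.1, 31.6 and 28.4 CPM at Mid and 33.9, 23.1, 34.1 and 23.9 CPM at Late (log2 fold change -0.24, edgeR adjusted p = 0.737). Of these genes none separated the groups. The gene btl (breathless), the receptor of bnl, was not among the genes counted, so its transcript could not be followed.

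The PVR pathway, the fly relative of PDGF and VEGF signalling, had all 4 genes above 0 with a median of 0.69 (edgeR unadjusted p under 0.05 in 2, all upward; DESeq2 calls 2, all upward). The ligand Pvf2 was at 15.8, 22.3, 18.7 and 30.8 CPM at Mid and 38.6, 79.8, 48 and 49.1 CPM at Late (log2 fold change 1.30, edgeR adjusted p = 0.0541). The receptor Pvr was at 267, 224, 192 and 228 CPM at Mid and 381, 442, 476 and 272 CPM at Late (log2 fold change 0.79, edgeR adjusted p = 0.0817). Neither overlapped between groups. Both passed without Late replicate 4, Pvf2 at 1.31 (edgeR adjusted p = 0.0362) and Pvr at 0.87 (edgeR adjusted p = 0.0396). That fit widens the distance between the groups by construction, and 1.41% of all genes passed upward in it. The ligand Pvf1 was at 9.57, 20.7, 12.9 and 14.3 CPM at Mid and 12.4, 15.5, 14.2 and 22.3 CPM at Late (log2 fold change 0.16, edgeR adjusted p = 0.964), and its fold change was -0.09 (edgeR adjusted p = 0.912) without that library.

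In the Ras and ERK cascade 15 of 23 tested genes had a fold change above 0, with a median of 0.16. The genes targeted in the tumour clones were also counted in muscle, and gene counts do not separate the alleles. Ras85D, which encodes Ras1, was at 109, 139, 126 and 138 CPM at Mid and 127, 137, 115 and 184 CPM at Late (log2 fold change 0.14, edgeR adjusted p = 0.839). Csk was at 135, 126, 91.2 and 128 CPM at Mid and 157, 122, 137 and 119 CPM at Late (log2 fold change 0.16, edgeR adjusted p = 0.964). The groups overlapped in both genes. The ERK gene rl was listed at 0 in all 16 libraries, so its transcript could not be followed. Feedback and target genes of ERK had 12 of 13 fold changes above 0, with a median of 0.34 (edgeR unadjusted p under 0.05 in 3, all upward; DESeq2 calls 1, upward). Mkp3, a phosphatase that switches ERK off, was at 30.1, 41.2, 29.7 and 44.1 CPM at Mid and 49.4, 59.7, 53.5 and 53.4 CPM at Late (log2 fold change 0.57, edgeR adjusted p = 0.0936), without overlap. The gene sty (sprouty), a feedback inhibitor of receptor tyrosine kinases, had a fold change of 0.33 (edgeR adjusted p = 0.534). The EGFR ligand gene grk, whose known role is in the female germline, was at 51.4, 34, 47.2 and 39 CPM at Mid and 24.5, 19.95, 26.7 and 33.3 CPM at Late (log2 fold change -0.72, edgeR adjusted p = 0.0817), and it passed without Late replicate 4, at -0.92 (edgeR adjusted p = 0.0219).

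For JAK-STAT, 12 of 14 tested genes had a fold change above 0, with a median of 0.67 and no call (edgeR unadjusted p under 0.05 in 3, all upward; DESeq2 calls 1, upward). The cytokine upd3 was at 3.79, 4.33, 1.69 and 6.51 CPM at Mid and 11.5, 22.7, 13.1 and 10.8 CPM at Late (log2 fold change 1.83, edgeR adjusted p = 0.391), low throughout but without overlap. The gene et (eye transformer), a short receptor that dampens the pathway, was at 20.4, 17.9, 18.8 and 23.1 CPM at Mid and 42.4, 77.7, 78.9 and 22.8 CPM at Late (log2 fold change 1.47, edgeR adjusted p = 0.0817), and without Late replicate 4 it passed, at 1.68 (edgeR adjusted p = 0.0209). Socs36E, a target and inhibitor, was at 85.4, 101, 64.7 and 118 CPM at Mid and 113, 167, 219 and 122 CPM at Late (log2 fold change 0.75, edgeR adjusted p = 0.276). Of the Activin ligands, daw (dawdle), which muscle uses to signal nutrient state, was at 92.1, 52.3, 63.3 and 125 CPM at Mid and 137, 249.6, 158 and 140.3 CPM at Late (log2 fold change 1.04, edgeR adjusted p = 0.0817), without overlap. ImpL2, a secreted protein that binds insulin-like peptides, was at 149, 218, 152 and 228 CPM at Mid and 161, 439, 329 and 328 CPM at Late (log2 fold change 0.75, edgeR adjusted p = 0.253), and the groups overlapped. The insulin and TOR list had a median of 0.05 over 24 genes. The gene yki, the effector of the Hippo pathway, had a fold change of -0.19 (edgeR adjusted p = 0.605).

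Most genes of cell death had fold changes above 0, without a call. Among 15 tested apoptosis genes 12 had a fold change above 0 and none passed. An unadjusted edgeR p under 0.05 was reached by 5 upward and 1 downward, and DESeq2 called 1 upward and 1 downward. Without overlap, 4 lay above (26.7%, against 4.44% of all genes) and 1 below (6.67%, against 3.76%). The gene rpr (reaper), which frees caspases from their inhibitor, was at 4.15, 6.07, 3.05 and 6.19 CPM at Mid and 12.6, 13, 13.2 and 11.8 CPM at Late (log2 fold change 1.38, SE 0.30, edgeR adjusted p = 0.0661), with the 4 Late libraries nearly level. Corp, a target and regulator of p53, was at 4.32, 7.56, 5.34 and 7.9 CPM at Mid and 10.3, 17.4, 9.97 and 13.6 CPM at Late (log2 fold change 1.03, edgeR adjusted p = 0.227). Drice, an effector caspase, was at 143, 135, 122 and 131 CPM at Mid and 99.4, 77.2, 87 and 106 CPM at Late (log2 fold change -0.52, edgeR adjusted p = 0.0817), lower in every Late library. Mmp1, a matrix metalloproteinase, was at 106, 185, 71.5 and 153 CPM at Mid and 206, 254.6, 296 and 201 CPM at Late (log2 fold change 0.90, edgeR adjusted p = 0.206).

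Immune genes and markers of blood cells were higher in part of the Late libraries. All 8 tested antimicrobial peptide genes had a fold change above 0, with a median of 2.91, at low levels and with no call (edgeR unadjusted p under 0.05 in 5, all upward; DESeq2 calls 1, upward). Their sum was 1.41, 6.07, 1.54 and 5.87 CPM at Mid and 118, 32.1, 51.7 and 5.13 CPM at Late, with Late replicate 4 inside the Mid range. AttC (Attacin-C) was at 0.176, 0.722, 0.79 and 3.95 CPM at Mid and 7.69, 17.6, 42.1 and 2.17 CPM at Late (log2 fold change 3.61, edgeR adjusted p = 0.104), and without Late replicate 4 it passed, at 3.93 (edgeR adjusted p = 0.0425). Peptidoglycan recognition proteins sense bacterial cell walls. PGRP-SD was at 5.34, 2.59, 1.88 and 2.88 CPM at Mid and 13.4, 11.3, 22.4 and 5.34 CPM at Late (log2 fold change 2.05, edgeR adjusted p = 0.0817). PGRP-SA was at 13.5, 10.5, 10.1 and 13.3 CPM at Mid and 23.8, 21.5, 51.2 and 13.6 CPM at Late (log2 fold change 1.22, edgeR adjusted p = 0.15). Neither overlapped between groups, though Late replicate 4 lay almost at the highest Mid library in both.

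Of 21 haemocyte markers 18 had a fold change above 0, 6 without overlap (28.6%, against 4.44%), with a median of 0.48 and no call (edgeR unadjusted p under 0.05 in 8, all upward; DESeq2 calls 1, upward). NimC1, a phagocytosis receptor of plasmatocytes, was at 18.6, 31.8, 31.3 and 29.6 CPM at Mid and 38.8, 53, 51.3 and 40.1 CPM at Late (log2 fold change 0.72, edgeR adjusted p = 0.181). The gene crq (croquemort), a receptor for apoptotic cells, was at 167, 167, 151 and 167 CPM at Mid and 259, 239, 269 and 170.5 CPM at Late (log2 fold change 0.52, edgeR adjusted p = 0.107). NimC4 (simu), another such receptor, was at 0.132, 0.976, 0.489 and 0.107 CPM at Mid and 8.63, 14.6, 3.43 and 2.2 CPM at Late (log2 fold change 4.07, edgeR adjusted p = 0.0936), at low levels in all 8 libraries. In contrast, Hml (hemolectin), the most abundant of those 4, was at 437, 509, 857 and 763 CPM at Mid and 510.4, 563, 522 and 410.1 CPM at Late (log2 fold change -0.36, edgeR adjusted p = 0.695), and the summed level of the list was 2464, 2703, 3618 and 2958 CPM at Mid and 3036, 3720, 3149 and 2409 CPM at Late, with overlap. Whether blood cells were more frequent in the dissected tissue was not tested.

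Most secreted factors of the Idgf, Adgf and Gbp families had fold changes above 0, without a call. In the list of Idgf, Adgf and Gbp factors 13 of 16 genes had a fold change above 0, with a median of 0.64 and no call in the fit to all 16 libraries (edgeR unadjusted p under 0.05 in 7, all upward; DESeq2 calls 5, all upward). Adgf-D, an adenosine deaminase related growth factor, was at 7.72, 4.75, 5.15 and 3.84 CPM at Mid and 20.2, 19.7, 51.3 and 6.97 CPM at Late (log2 fold change 2.19, edgeR adjusted p = 0.0616). Without Late replicate 4 its fold change was 2.41 (edgeR adjusted p = 0.00878). Gbp2, a growth-blocking peptide, was at 122, 46.9, 47.7 and 57.7 CPM at Mid and 247, 229.7, 532 and 103 CPM at Late (log2 fold change 2.02, edgeR adjusted p = 0.0912), with a fold change of 2.21 (edgeR adjusted p = 0.0355) in that fit. Idgf5, an imaginal disc growth factor, was at 38.1, 10.02, 15.4 and 17.2 CPM at Mid and 79, 69.4, 172 and 30.1 CPM at Late (log2 fold change 2.12, edgeR adjusted p = 0.0954), with a fold change of 2.32 (edgeR adjusted p = 0.0395) in that fit. In all 3, Late replicate 3 was highest and Late replicate 4 the lowest Late library, as in the fat body sum. The larval serum protein gene Lsp2 of the fat body was at 6469.9, 2575, 2933 and 4384 CPM at Mid and 11729, 6339, 20899 and 3442 CPM at Late (log2 fold change 1.37, edgeR adjusted p = 0.185), and Apoltp, the lipid transfer particle apolipoprotein, at 38.8, 17.4, 14.3 and 21.2 CPM at Mid and 130.1, 91.8, 128 and 23.4 CPM at Late (log2 fold change 2.03, edgeR adjusted p = 0.071). Both passed without Late replicate 4, at 1.58 (edgeR adjusted p = 0.0495) and 2.28 (edgeR adjusted p = 0.00779). How far attached fat body contributed to these genes was not tested.

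Most cuticle and neuron markers had fold changes below 0. Of 72 tested cuticle protein genes 56 had a fold change below 0, with a median of -0.93 and no call (edgeR unadjusted p under 0.05 in 15, all downward; DESeq2 calls 7, all downward). Their sum was 28668, 28512, 54591 and 34316 CPM at Mid and 14717, 16131, 15044 and 25029 CPM at Late, without overlap. Lcp1, a larval cuticle protein with a close relative in Lcp2, was at 6187, 7072, 23498 and 9492 CPM at Mid and 2249.7, 2877, 2536 and 6624 CPM at Late (log2 fold change -1.69, edgeR adjusted p = 0.0936). Lcp2 was at 2094, 1504, 6966 and 3413 CPM at Mid and 881, 1033, 849.6 and 1778 CPM at Late (log2 fold change -1.62, edgeR adjusted p = 0.0936). Both passed without Late replicate 4, at -2.23 (edgeR adjusted p = 0.0281) and -1.97 (edgeR adjusted p = 0.0462). MsrA, also known as the ecdysone-induced Eip71CD, was at 82.1, 89.1, 206 and 113 CPM at Mid and 54, 43.8, 37.2 and 72 CPM at Late (log2 fold change -1.24, edgeR adjusted p = 0.0894). Of 21 neuron markers 20 had a fold change below 0, with a median of -0.71, while their summed level overlapped, at 391, 609, 413 and 570.4 CPM at Mid and 506, 455, 540.2 and 397 CPM at Late. The exception was Syt1 (synaptotagmin), the calcium sensor of synaptic vesicles and the highest in fold change, at 40.4, 31.9, 24.8 and 38.1 CPM at Mid and 122, 75.6, 159 and 34.4 CPM at Late (log2 fold change 1.53, edgeR adjusted p = 0.0817), which passed without Late replicate 4, at 1.74 (edgeR adjusted p = 0.00813).

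Some genes turned on 1 library. The gene ple, tyrosine hydroxylase, was at 4.72, 88.9, 1.99 and 4.48 CPM at Mid and 2101, 8.96, 4.95 and 13.5 CPM at Late (log2 fold change 4.41, edgeR adjusted p = 0.379), and the gene e (ebony), which conjugates dopamine with beta-alanine for cuticle tanning, was at 0.353, 1.83, 0.451 and 1.25 CPM at Mid and 1870.3, 15.3, 3.3 and 2.34 CPM at Late (log2 fold change 8.92, edgeR adjusted p = 0.157). In both, Late replicate 1 was far above the other Mid and Late libraries. The means on CD were 914 CPM for ple and 490 CPM for e, and those at Early 3.26 and 0.825 CPM. Ddc, dopa decarboxylase of the same pathway, was at 56.8, 1759, 110.4 and 65.5 CPM at Mid and 67.8, 69.8, 84.1 and 708 CPM at Late (log2 fold change -1.10, edgeR adjusted p = 0.855), high in Mid replicate 2 and Late replicate 4. The median of the 38 tested testis genes was 0.24 and became -1.64 without Late replicate 4, which had the highest testis sum. The 40 tested gut enzyme genes had a median of 1.20, which ranged from -0.21 to 2.02 over the alternatives, and 25 genes of the ecdysone response had a median of 0.02, whose sign changed in 13 of the 17 alternatives.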

How the data were processed

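Body wall muscle libraries were made with a stranded mRNA kit from pooled dissected tissue and sequenced in pairs. The authors trimmed reads with Trim Galore, aligned them to dm3 with TopHat2 2.0.11 and deposited raw read counts per gene from featureCounts, with CASAVA 1.8.4 upstream; the strand setting and annotation release are not given in the sources used here, so antisense neighbours and near copies may share reads. Symbols came from a BDGP6 annotation by FlyBase identifier, and 680 identifiers had none. Of the symbols in the gene lists, 121 were not matched to a gene counted. Among them were wupA, Zasp52 and Strn-Mlck of the sarcomere lists and InR of the insulin list, so these genes could not be followed. No coordinates or sequences were used, since the builds differ.

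Counts were filtered with filterByExpr defaults and fitted with edgeR 4.0.16 (R 4.3.3), TMM scaling and 4 groups over all 16 libraries, contrasting Late with Mid. DESeq2 1.42.0, other scalings, filters, library subsets, a replicate block and thinning were tried. Calls used an adjusted p of 0.05. Genes were named by a rule: up to 12 per direction among called, non-overlapping genes of at least 10 CPM, up to 4 called genes (or the most abundant) per list, and a fixed set of genes of the study. For some lists described by examples the rule's gene was not printed, such as Msp300, Ald1 and Rpn2. All other genes were chosen after their values were seen. These include many of the examples given for the lists, so they do not represent their lists. The members and lists were chosen with earlier results of these data known. The study states biological replicates for its experiments in general, but the sources used here do not say from which vials or crosses each of these libraries came, so p-values measure only the spread between these libraries, part of which may be technical. The fit was checked on simulated counts.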

Additional observations from a re-analysis of the deposited data

Results flagged for a closer look

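Some values lay far from the other 3 libraries of their group, by a gap beyond Dixon's critical value for the group's range, on the scale of log2(CPM + 0.5). This held for 14 of 280 groups examined (122 named genes, 17 list sums and the total count, at Mid and at Late), which is 5% and about what chance gives, 1 group in 20. On the linear scale of CPM 22 groups passed, among them ple and Ddc in both groups and e at Late. Values below are in CPM. Of the 9 cases at Mid, 5 were Mid replicate 2. It was high for Mef2, at 175.0 CPM against 97.88 to 101.5, and low for RyR, at 42.32 CPM against 69.05 to 72.07. It was also low for CG9269, at 7.344 CPM against 16.23 to 18.97. The summed tracheal markers there were 1930 CPM against 4018 to 4109, and the summed Malpighian tubule and oenocyte markers 2359 CPM against 3028 to 3180.

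Mid replicate 1 was low for NimC1, at 18.57 CPM against 29.61 to 31.75, and high for Cyp28d1, at 24.04 CPM against 10.16 to 11.35. Mid replicate 3 was low for CG12868, at 12.41 CPM against 15.41 to 15.62, and for crq, at 150.8 CPM against 166.5 to 167.5.

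At Late, replicate 4 was high for Gs2, at 373.6 CPM against 79.53 to 100.4, and for Ddc, at 707.5 CPM against 67.77 to 84.13. Late replicate 2 was high for JhI-21, at 92.72 CPM against 38.78 to 43.06, and low for Rpn8, at 196.7 CPM against 256.0 to 266.7. Late replicate 1 was high for ple, at 2101 CPM against 4.955 to 13.53.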

How the results depend on the processing

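All 22 genes kept their direction in all 17 alternatives, and their largest unadjusted p in any of them was 0.00184. As the groups of these genes did not overlap, their direction had little room to change. How many passed depended on the setting, since adjusted values lie close to the threshold. The count of calls (upward and downward) was 22 (16 and 6) with DESeq2 size factors, 32 (24 and 8) with upper-quartile scaling and 25 (19 and 6) with thinned libraries. It was 2 (1 and 1) of 14096 genes without the filter, 233 (169 and 64) of 6925 genes where low genes under 10 CPM on average in both groups were left out, and 1 (0 and 1) with the 20 genes of most counts removed. DESeq2's Wald test gave 571 (312 and 259), with 2717 adjusted p-values not given. In the fit to the 8 libraries alone edgeR gave 0 (0 and 0), with 1803 genes at an unadjusted p under 0.05 and a smallest adjusted p of 0.11. Leaving out 1 library gave 0 to 222 calls, 0 to 166 upward and 0 to 56 downward. The share of upward calls was 16 of 22 with DESeq2 size factors and 312 of 571 with the Wald test, against 17 of 22.

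Replicate numbers did not pair the libraries: the deviations of same-numbered libraries had correlations of -0.516, -0.008, 0.134 and -0.643. With the replicate block the count was 6 (5 upward and 1 downward), and 5 of the 22 remained. The cause of these differences was not tested.

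Among the named genes the direction changed for genes near 0 or led by 1 library. The fold change of pyr became -0.00681 with DESeq2 size factors, -0.0216 with upper-quartile scaling, -0.00175 without the filter, -0.00685 with the 20 genes removed and -0.00685 in the Wald test, and ran from -0.15 to 0.27 with 1 library left out. With 1 library left out it ran from -0.0689 to 0.17 for Ras85D, from -0.00748 to 0.22 for Csk, from -0.0903 to 0.34 for Pvf1, from -1.57 to 7.12 for ple and from -2.86 to 1.49 for Ddc. Of 1258 list medians under the alternatives, 78 moved by more than the spread between libraries.

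Depth was similar in both groups and thinning to the lowest total of 9666672 counts left 18 of the 22 calls.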

Other observations

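Other gene lists that belong to no comparison above gave smaller or uneven differences, and they are reported as values. Turandot peptides, secreted under stress, had all 3 tested genes above 0 with a median of 1.26, and their sum was 37.8, 103, 17.6 and 70.2 CPM at Mid and 179.7, 212, 72.6 and 84.1 CPM at Late, with overlap between the groups. The median of 14 melanisation genes was 0.48, with 11 above 0. Bomanin and Daisho peptides of the Toll response had 14 of 15 fold changes above 0 and a median of 0.43, while 24 genes of the Toll and Imd pathways themselves had a median of 0.14. In none of these 4 lists did edgeR make a call in the fit to all 16 libraries, and an unadjusted p under 0.05 was reached upward by 0, 5, 1 and 3 genes, with 0, 2, 0 and 2 DESeq2 calls.

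Lysosomal hydrolases had a median of 0.11 over 18 genes, with single members from -1.51 to 1.54. The 27 tested subunits of the vacuolar proton pump, which acidifies lysosomes, had a median of -0.15 that became -0.50 without Late replicate 4, when 4 of 27 were above 0 and the median of all genes was -0.09. Their list's summed level overlapped, at 5391.6, 5811.5, 6013 and 5767.5 CPM at Mid and 4174.5, 4953, 5627.8 and 5466.2 CPM at Late. DNA replication and cell cycle genes had 25 of 36 fold changes above 0 with a median of 0.11, whose sign changed in 3 of the 17 alternatives. Hippo, Notch and Wnt pathway lists had medians of 0.01, 0.10 and 0.10, and the Hippo sign changed in 12 of the 17. Lipid synthesis had a median of 0.00 and lipolysis with fatty acid oxidation of 0.04, and each changed sign, in 15 and in 7 of the 17.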
